A study of Drosophila melanogaster with 2 samples.

Results

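The mitochondrial ribosomal protein genes and PNPase of Drosophila melanogaster were described by the binding of CG6276 near their transcript starts. Members were the protein-coding genes of the Ensembl annotation of build BDGP6.54 whose names begin with mRpL or mRpS, plus PNPase. This gave 74 of 13945 protein-coding genes: 47 of the large ribosomal subunit, 26 of the small subunit, and PNPase. Binding had been mapped by chromatin immunoprecipitation and sequencing (ChIP-seq) with an anti-GFP antibody in whole prepupae, the stage that opens metamorphosis. The animals, pooled males and females, were of a stable transgenic line with GFP at the C-terminus of CG6276, and the 2 biological replicates, numbered 2 and 4, came from separate biosamples of this line. The labels also give an age of 72 days, longer than fly development to the adult takes. There was a single group, no control library was analysed here, and the labels do not say what drives the transgene or which cells express it.

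Mitochondria carry their own ribosomes, which make the few respiratory chain subunits that mitochondrial DNA encodes. The ribosomal RNAs come from mitochondrial DNA, whereas the ribosomal proteins are encoded in the nucleus, made in the cytosol and imported. PNPase, polynucleotide phosphorylase, is a mitochondrial exoribonuclease that takes part in the turnover of mitochondrial RNA.

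Sequence under 5 of the strong summits is shown because these member peaks have their summits outside annotated exons and within 500 bp of the starts of a pair of genes. The mRpL23 summit also meets this but is not shown, because it lies beside an annotated exon, which leaves almost no sequence on one side of it. Each run is the dm6 plus strand from Release 6, 5′ to 3′, up to 100 bases to each side of the summit and cut at the first annotated exon. Capitals mark matches, on either strand, to the word CAGTG, to the word GAGAG, or to the TATA box core TATAAA. These words are common at other promoter peaks. In windows of 201 bp there, CAGTG was present in 38.9%, GAGAG in 36.8% and TATAAA in 29.7%. The summit follows the first 100 bases of each run. The mRpS23 run (chr2L:13835364-13835563) has 3 copies of CAGTG, the mRpL2 run (chr3L:11120418-11120609) has GAGAG and TATAAA, and the runs of mRpS10 (chr3R:15229437-15229637), mRpL24 (chr2L:4945391-4945578) and mRpL20 (chr3L:13018042-13018242) have no match to these words.
mRpS23: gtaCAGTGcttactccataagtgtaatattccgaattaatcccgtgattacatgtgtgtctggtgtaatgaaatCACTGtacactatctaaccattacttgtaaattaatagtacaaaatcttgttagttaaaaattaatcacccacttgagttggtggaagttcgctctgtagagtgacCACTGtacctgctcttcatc
mRpS10: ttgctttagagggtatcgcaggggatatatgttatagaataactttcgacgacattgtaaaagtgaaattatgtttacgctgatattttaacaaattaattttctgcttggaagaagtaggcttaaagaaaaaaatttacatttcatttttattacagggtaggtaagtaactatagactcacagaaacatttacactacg
mRpL2: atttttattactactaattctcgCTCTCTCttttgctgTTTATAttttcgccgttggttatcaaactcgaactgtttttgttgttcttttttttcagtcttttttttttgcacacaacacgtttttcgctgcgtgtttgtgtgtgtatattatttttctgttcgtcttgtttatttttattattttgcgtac
mRpL24: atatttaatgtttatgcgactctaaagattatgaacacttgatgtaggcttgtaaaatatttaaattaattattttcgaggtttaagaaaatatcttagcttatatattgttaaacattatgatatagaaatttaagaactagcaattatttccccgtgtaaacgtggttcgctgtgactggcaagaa
mRpL20: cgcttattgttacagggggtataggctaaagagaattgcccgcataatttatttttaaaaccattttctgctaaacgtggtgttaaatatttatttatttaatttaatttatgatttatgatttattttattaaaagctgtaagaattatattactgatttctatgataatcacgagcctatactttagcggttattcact

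Few members had a promoter peak, and most of those that did had a strong one. A promoter peak was a peak with its summit within 500 bp of an annotated start of the gene. In the list of 7326 peaks that passed the authors' irreproducible discovery rate (IDR) threshold, 9 of 74 members had one (12.2%, 95% Wilson interval 6.53% to 21.5%), against 13.2% of all protein-coding genes. The members' share was thus close to the background, and it stood above it when only the most upstream start of each gene was used (12.2%, against 10.6%). The 9 were PNPase, the small-subunit genes mRpS10, mRpS23 and mRpS25, and the large-subunit genes mRpL2, mRpL20, mRpL23, mRpL24 and mRpL41. By subunit, 5 of 47 large-subunit and 3 of 26 small-subunit genes were bound. Intervals cover the counting of genes only and not variation between replicates, and sequencing depth is unknown.

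The longer lists, which the authors labelled as peaks and background, held fewer members than the background share. Each had 30000 entries. In the pooled list 11 members had a promoter peak (14.9%, interval 8.51% to 24.7%), against 24.6% of all protein-coding genes. In replicate 2 there were 15 (20.3%, interval 12.7% to 30.8%), against 28.7%, and in replicate 4 there were 12 (16.2%, interval 9.53% to 26.2%), against 25.1%. Of the 11 members in the pooled list 9 were also in the IDR-thresholded list (81.8%), against 53.8% of all protein-coding genes in the pooled list. No promoter peak in any list was found for 57 members (77.0%), against 66.4% of all protein-coding genes. Set tests were not run, so these are counts set side by side. Members also had fewer annotated starts than other genes, as given below, and the shares in the longer lists do not allow for that.

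**Figure D1:**
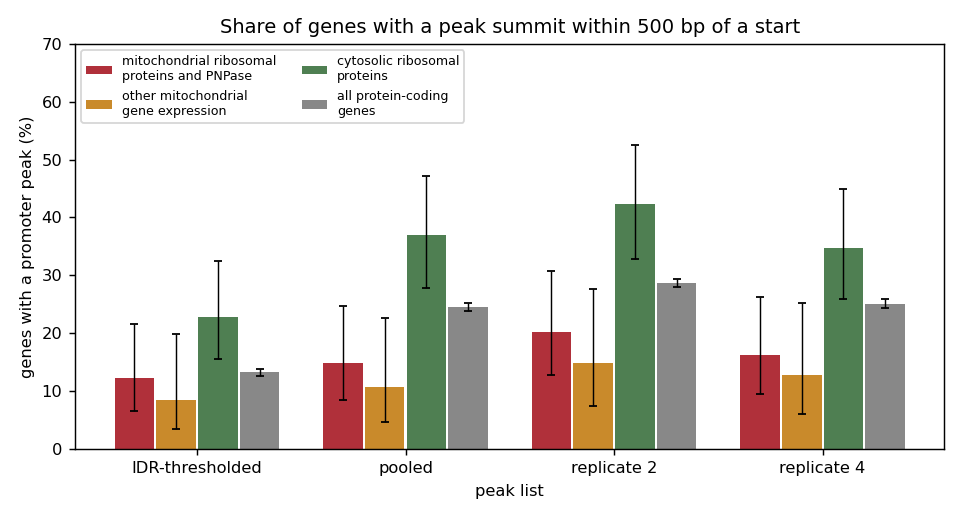
Share of genes with a promoter peak (percent, y axis) in each of the 4 peak lists (x axis), for members, 2 related gene lists and all protein-coding genes; bars are shares and lines are 95% Wilson intervals, which cover counting only. Members stood at 12.2% in the IDR-thresholded list beside 13.2% of all protein-coding genes, and at 14.9% in the pooled list beside 24.6%.

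The members' peaks were strong for promoter peaks. Signal values below are the authors' per-peak scores, comparable only within a list. Taking the strongest IDR-thresholded promoter peak of each gene, the 9 members had a median signal value of 1279, against 316 over all 1842 protein-coding genes with such a peak. Of the 9 members 7 lay above the upper quartile of those genes, 679. The signal value exceeded the median of the whole list, 252, in 8 of the 9 members (88.9%), against 61.0% of all protein-coding genes with a promoter peak. The exception was mRpS25. In the longer replicate lists this share was alike in members and in all protein-coding genes, at 80.0% against 78.6% in replicate 2 and 9 of 12 against 75.9% in replicate 4. The median signal value there was higher in members, at 248 against 83.7 in replicate 2 and 413 against 76.0 in replicate 4.

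**Figure D2:**
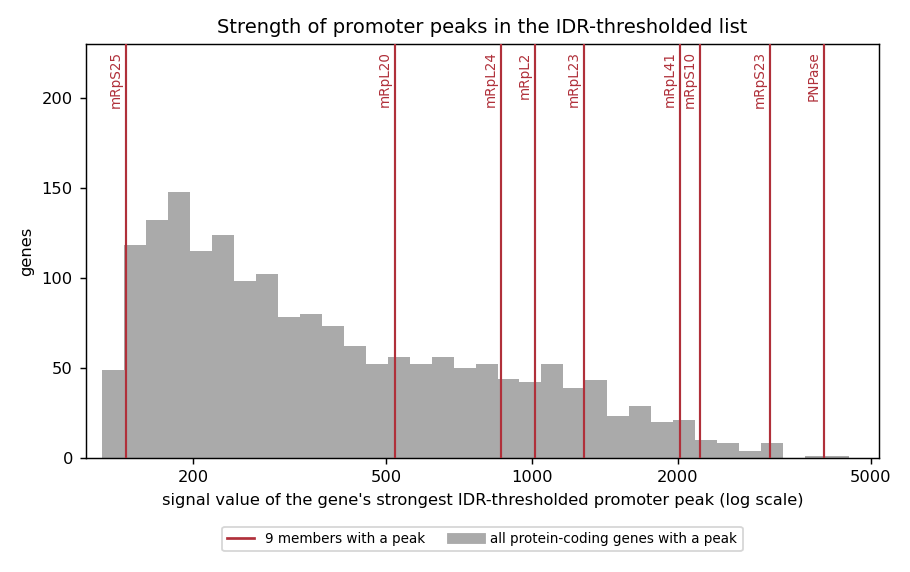
Number of protein-coding genes (y axis) by the signal value of their strongest IDR-thresholded promoter peak (x axis, log scale); grey bars are all 1842 genes with such a peak and red lines are the 9 members. PNPase lies at 4005, near the right end, and mRpS25 at 146, near the left end.

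PNPase had the strongest peak of the group and the second highest value of any protein-coding gene. Its signal value was 4005 in the IDR-thresholded list, where it ranked 4, and 2039 in replicate 2 and 1970.2 in replicate 4, where it ranked 4 and 3. Both replicates placed it among their strongest few peaks. PNPase lies on the minus strand of chromosome 3R with annotated starts at 31405452, 31404740 and 31404568. The peak (31404465 to 31404846, dm6, 1-based) had its summit at 31404660, in an annotated 5′ UTR of PNPase, 80 bp downstream of the start at 31404740 and 792 bp downstream of the most upstream one. No other gene had a start within 500 bp of that summit, so under this window it was a promoter peak of PNPase alone. A second, weaker peak lay 993 bp away, 201 bp upstream of the most upstream start, in the 5′ UTR of Gprk2. Gprk2 encodes a G protein-coupled receptor kinase and lies on the opposite strand. The weaker summit was 408 bp downstream of a Gprk2 start, which thus lay between the PNPase summits. That Gprk2 start was outside the 500 bp window of the strong summit, but nearer to it than the most upstream PNPase start. The weaker peak had a signal value of 346 in the IDR-thresholded list, 180.5 in replicate 2 and 154 in replicate 4.

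Among small-subunit genes mRpS23 and mRpS10 had peaks near the top of every list. For mRpS23, whose human relative is a mitochondria-specific protein with no bacterial counterpart, the signal value was 3096 in the IDR-thresholded list (rank 14), 1583 in replicate 2 (rank 15) and 1526 in replicate 4 (rank 12). Its summit lay between genes, 392 bp upstream of mRpS23 on chromosome 2L (13835289 to 13835675). For mRpS10, the relative of bacterial ribosomal protein S10, the values were 2226 (rank 44), 1154 (rank 49) and 1076 (rank 47) in the same order of lists. Its summit lay between genes, 128 bp upstream of a start on chromosome 3R (15229353 to 15229714). The replicate summits of mRpS23 and mRpS10 were at most 7 bp from those of the IDR-thresholded peaks.

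The third small-subunit gene, mRpS25, had a weak peak that replicate 4 did not show. Its human relative is also specific to mitochondria. The signal value was 146 in the IDR-thresholded list, where it ranked 6981 of 7326, and 57.6 in replicate 2, where it ranked 9897. The nearest summit of replicate 4 was 6948 bp away. The peak (chromosome X, 14583199 to 14583648) had its summit 442 bp upstream of mRpS25, inside an annotated INE-1 transposable element, a repeat with many copies in the fly genome. How reads from such repeats were placed is not stated in the documentation read here. The other 8 of the 9 members had a promoter peak in both replicates (88.9%), against 95.0% of all protein-coding genes with an IDR-thresholded one.

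Of the large-subunit genes mRpL41 had the strongest peak. For mRpL41, whose human relative has no bacterial counterpart, the signal value was 2019.8 in the IDR-thresholded list (rank 61), 1121 in replicate 2 (rank 52) and 907 in replicate 4 (rank 72). Its summit lay between genes, 130 bp upstream of the start on chromosome 2R (15217569 to 15217938). For mRpL23, a relative of the bacterial protein at the mouth of the exit tunnel, the values were 1279 (rank 244), 616 (rank 301) and 664 (rank 207). That summit was 83 bp downstream of an annotated start, in an intron of mRpL23 (chromosome 3L, 2373447 to 2373769), and the replicate summits fell in its 5′ UTR. The better rank was in replicate 2 for mRpL41 and in replicate 4 for mRpL23.

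The other large-subunit peaks were less strong but were found in both replicates. For mRpL2, a relative of the bacterial protein near the peptidyl transferase centre, the values were 1013 (rank 426), 576 (rank 365) and 448 (rank 510). Its interval (chromosome 3L, 11120327 to 11120752) held 2 summits. The stronger, 329 bp upstream of mRpL2, lay in an intron of FoxK, and the weaker, 127 bp upstream and with a signal value of 184, lay in the 5′ UTR of FoxK. The weaker summit ranked 4011 in replicate 2 and 10738 in replicate 4. For mRpL24, a relative of a bacterial protein that starts large-subunit assembly, the values were 863 (rank 575), 478 (rank 554) and 378 (rank 706), with the summit 130 bp upstream on chromosome 2L (4945348 to 4945637). For mRpL20, a relative of another bacterial assembly protein, they were 522 (rank 1349), 248 (rank 1619) and 267 (rank 1281), with the summit 275 bp upstream on chromosome 3L (13018028 to 13018285). The mRpL24 and mRpL20 summits both lay between genes.

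**Figure D3:**
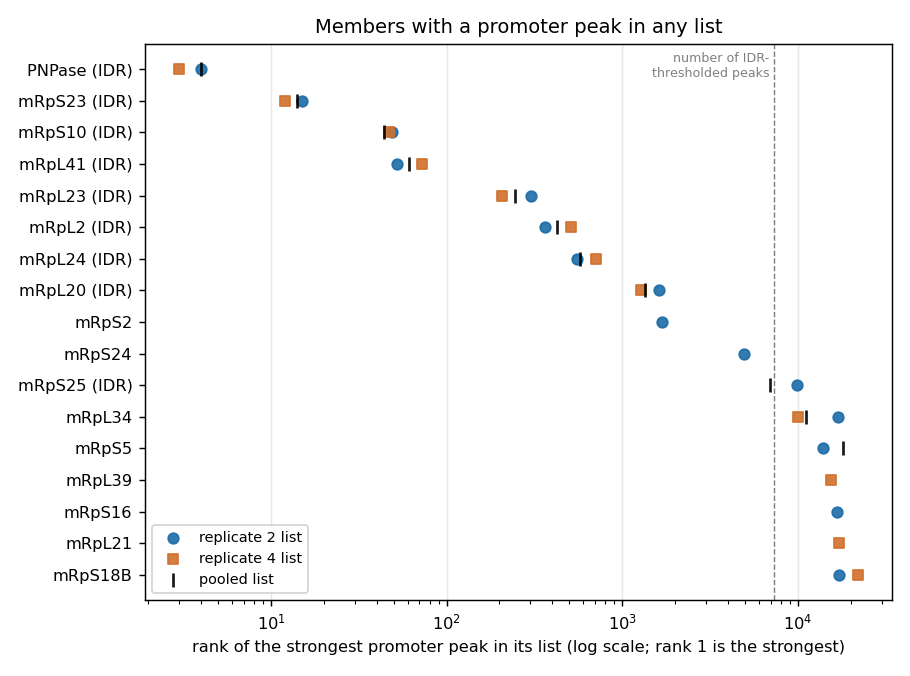
Rank of each member's strongest promoter peak (x axis, log scale, rank 1 being the strongest) in the replicate 2, replicate 4 and pooled lists, for the 17 members with a promoter peak in any list; "(IDR)" marks the 9 in the IDR-thresholded list, and the dashed line is at 7326. For 8 of those 9 the marks of the replicates lie close together, and mRpS25 has no mark for replicate 4.

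Summit positions differed little between the lists. The 9 members had 11 IDR-thresholded summits in their promoters. All 11 had a replicate 2 summit within 50 bp (median distance 3 bp), against 84.8% of the 2117 other promoter peaks (median 14 bp). For replicate 4 it was 10 of 11 (median 5 bp), against 83.4% of the others (median 14 bp). The IDR-thresholded list was made from these replicate lists, so closeness to them is partly built in. The members' peaks were also stronger, with a median signal value of 1013, against 270 in the others, and peaks of like strength were not compared. The strongest summit lay upstream of the start in 7 of 9 members, at a median of -130 bp, against 71.6% of all protein-coding genes with a peak, at a median of -140 bp.

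Most of the members' peaks could not be assigned to the member alone. Another protein-coding gene had a start within 500 bp of the same summit for 9 of the 11 summits (81.8%), against 11.9% of the other promoter peaks. These shares are not on an equal footing. Members' peaks were picked by gene, so a shared peak could enter through either gene, and mRpL2 gave 2 of the shared summits. By gene, 7 of the 9 bound members had another protein-coding start within 500 bp of their own, against 596 of the 1842 bound protein-coding genes. In 5 of the 9 members the strongest summit was nearer to a start of another gene. At mRpS23 it lay 100 bp upstream of CenG1A, which encodes an Arf GTPase-activating protein, and 392 bp upstream of mRpS23. At mRpL2 it lay in an intron of FoxK, a forkhead transcription factor gene, 107 bp upstream of an internal FoxK start. At mRpL20 it lay 124 bp upstream of Icmt, which encodes a methyltransferase of prenylated proteins, and at mRpL24 it lay 88 bp upstream of betaggt-I, a geranylgeranyl transferase subunit gene. At mRpS25 the nearest start was that of the transposable element, 12 bp away, and the nucleoside diphosphate kinase gene nmdyn-D6 started 253 bp from the summit.

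The remaining members' summits were as near or nearer to their own starts. The mRpS10 summit sat midway in a shared promoter, 128 bp upstream of mRpS10 and 129 bp upstream of Art3, an arginine methyltransferase gene. At mRpL23 the summit was 83 bp downstream of the nearest mRpL23 start, which is not the most upstream one, and 133 bp upstream of CG9004. The mRpL41 summit and the strong PNPase summit had no other protein-coding start within 500 bp, although the non-coding gene lncRNA:CR44463 started 448 bp from the mRpL41 summit on the same strand.

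**Figure D4:**
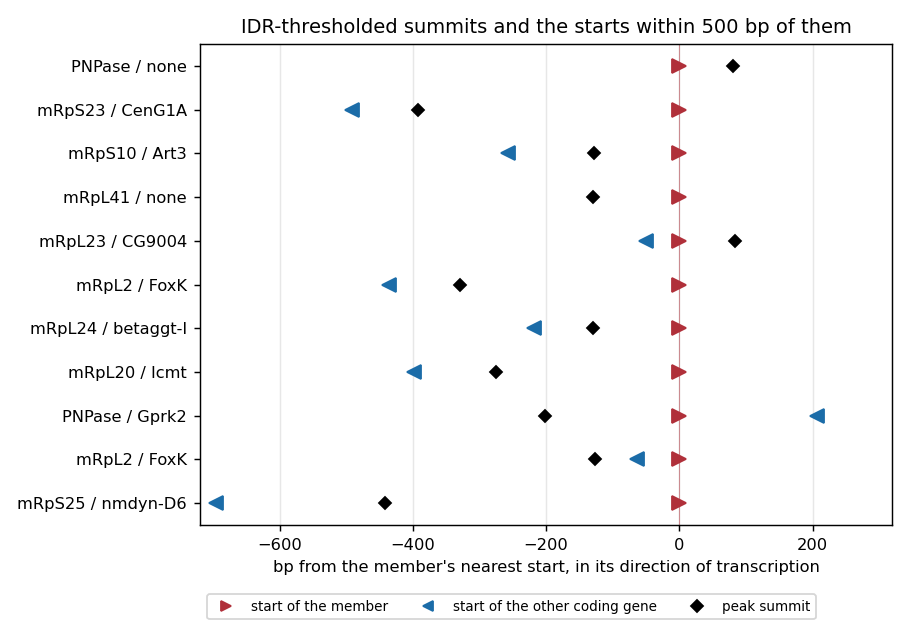
Position of the 11 IDR-thresholded summits in members' promoters (black diamonds) and of protein-coding starts within 500 bp of them, in bp from the member's nearest start and in its direction of transcription (x axis); rows run from the strongest peak at the top to the weakest, each with the member and the other gene. The other genes' starts (blue) all point left, opposite to the members (red), and the strongest summit lies nearer to the blue mark than to the red one in 5 members.

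Neighbouring starts were common in the group, bound or not, counted here by the distance between starts and not from a summit. Of the 74 members 55 had another protein-coding gene with a start within 500 bp of their own (74.3%), against 30.9% of all protein-coding genes, and in 54 of the 55 such a gene lay on the opposite strand (98.2%), against 3878 of the 4309 protein-coding genes with a partner. Peaks were about as frequent with such a partner as without. Of the 55 members with a partner 7 had an IDR-thresholded promoter peak (12.7%), and of the 19 without 2 had one (10.5%). These 2 were mRpL41 and mRpS25. The nmdyn-D6 start was within 500 bp of the mRpS25 summit but not of the mRpS25 start. Over all protein-coding genes the shares were 13.8% and 12.9%.

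Members also had few annotated starts, which limits the windows in which a summit can fall. A single start was annotated for 67 of 74 members (90.5%), against 73.5% of all protein-coding genes. Among single-start genes 6 of 67 members had an IDR-thresholded promoter peak (8.96%), against 7.66% of all. Among genes with several starts 3 of 7 members had one, namely PNPase, mRpL23 and mRpS10, against 28.6% of all.

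A further 8 of 74 members had a promoter peak only outside the IDR-thresholded list (10.8%), against 20.4% of all protein-coding genes. Of the 8 members 2, mRpL34 and mRpS18B, had one in both replicates (25.0%), against 38.6% of the 2846 such protein-coding genes. At mRpL34 the signal value was 94.3 in the pooled list (rank 11074), 34.5 in replicate 2 and 55.5 in replicate 4. That summit was 478 bp upstream of mRpL34, in the 5′ UTR of Dg, the dystroglycan gene. At mRpS18B it was 34.1 in replicate 2 (rank 17121) and 27.2 in replicate 4 (rank 22180), with no promoter peak in the pooled list. These values lay below the list medians of 38.8 in replicate 2 and 39.1 in replicate 4, except that of mRpL34 in replicate 4.

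The other 6 were seen in a single replicate. In replicate 2 these were mRpS2, mRpS24, mRpS5 and mRpS16, and in replicate 4 mRpL21 and mRpL39. For mRpS2, a relative of bacterial S2, the replicate 2 signal value was 240.2 (rank 1682), with the summit 134 bp upstream, between genes. For mRpS24 it was 107 (rank 4957), with the summit 292 bp upstream. For mRpS5, a relative of bacterial S5, it was 42.1 in replicate 2 and 58.3 in the pooled list. The remaining 3 had values between 34.9 and 38.2 in the replicate that held them.

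The 57 members without a promoter peak in any list included 39 of the large subunit. These were mRpL1, mRpL3, mRpL4, mRpL9 to mRpL19, mRpL22, mRpL27, mRpL28, mRpL30, mRpL32, mRpL33, mRpL35 to mRpL38, mRpL40 and mRpL42 to mRpL55. The 18 of the small subunit were mRpS6, mRpS7, mRpS9, mRpS11, mRpS14, mRpS17, mRpS18A, mRpS18C, mRpS21, mRpS22, mRpS26, mRpS28 to mRpS31 and mRpS33 to mRpS35.

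Some members without a promoter peak had an IDR-thresholded peak somewhat farther away. Of the 65 without one 9 had such a summit within 2000 bp of a start (13.8%), against 10.1% of all protein-coding genes without one. The closest was at mRpS31, 550 bp upstream, with a signal value of 734 (rank 777), and it was a promoter peak of the neighbour hzg. A peak with a signal value of 789 (rank 691) lay 1471 bp downstream of the mRpL13 start, at a promoter of CG10602. Peaks of 578 and 573 lay 1338 bp upstream of mRpL32 and 1137 bp upstream of mRpL34, at no coding gene's promoter. The median distance from the nearest IDR-thresholded summit was 11733 bp over the 65 members, against 11636 bp over all protein-coding genes without a promoter peak.

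Sequence at the members' summits was rich in A and T, and it was searched for short words. In windows of 201 bp centred on the 11 summits, A and T made up a median of 65.7% (58.2% to 73.6%), against 61.2% in the windows of the 2117 other promoter peaks. The word CAGTG, in either orientation, was present in 1 of 11 windows, that of mRpS23, against 38.9% of the other windows and 38.7% of the 1141 of those above the list's median signal value. GAGAG, part of the GAGA factor's target, was present in 4 of 11 windows (at mRpL23, PNPase's weaker summit and both mRpL2 summits), against 36.8%. TATAAA, the TATA box core, was present in 2 of 11, against 29.7%. None of the 11 held TATCGATA, the DNA replication-related element, CACGTG, an E-box, or GCGCATGC, a word of the nuclear respiratory factor type. These were rare elsewhere too, at 0.945%, 2.03% and 0.661% of the other windows. A match or its absence says only whether these letters lie in the window.

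Other genes of mitochondrial gene expression were compared as a list of 47. It held mitochondrial DNA maintenance, transcription, RNA processing, translation and aminoacyl-tRNA synthetase genes, and also Letm1. An IDR-thresholded promoter peak was found for 4 of 47 (8.51%, interval 3.36% to 19.9%), against 13.2% of all protein-coding genes. The strongest was at SLIRP2, a relative of a human mitochondrial RNA-binding protein, with signal values of 1408 in the IDR-thresholded list, 705 in replicate 2 and 685 in replicate 4; it was also a promoter peak of the kinase gene Mkk4. For scu, whose human relative is a subunit of mitochondrial RNase P, they were 955, 540 and 422. Weak peaks lay at Letm1, an inner-membrane ion exchanger gene (190.3, with none in replicate 2), and at the initiation factor gene mIF2 (175). In the longer lists the shares lay below the background: 10.6% against 24.6% in the pooled list, 14.9% against 28.7% in replicate 2 and 12.8% against 25.1% in replicate 4. A single start was annotated for 42 of the 47 (89.4%), and these shares do not allow for that. None of the 15 synthetase genes of the list, those whose names end in RS-m, was among the 4.

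Beside the genes for the cytosolic ribosome, which makes the mitochondrial ribosomal proteins, the members had a smaller share with a promoter peak, and those in the IDR-thresholded list had higher signal values. An IDR-thresholded one was found for 9 of 74 members (12.2%), against 21 of 92 cytosolic ribosomal protein genes (22.8%, interval 15.4% to 32.4%). Several starts were annotated for 47.8% of the cytosolic genes, against 9.46% of members. Among single-start genes the share was 8.96% in members, against 20.8% in cytosolic genes. Among genes with several starts the order was the other way, with 3 of 7 members against 25.0% of cytosolic genes. The median signal value was 1279 over the 9 members and 215 over the 21 cytosolic genes. The list's median signal value was exceeded in 8 of the 9 members and in 3 of the 21 cytosolic genes. Without PNPase, which is not a ribosomal protein gene, 8 of 73 had an IDR-thresholded promoter peak (11.0%). Their median signal value was 1146, and 7 of the 8 exceeded the list's median. In the replicate lists the order was the other way, with 80.0% of bound members against 94.9% of bound cytosolic genes above the median of replicate 2, and 9 of 12 members against 90.6% above that of replicate 4. The median signal value of the bound genes was 248 in members and 93.4 in cytosolic genes in replicate 2, and 413 and 74.3 in replicate 4. In 8 of the 9 members the peak was stronger than the highest of the cytosolic genes, at RpL31 (401), RpL24 (285) and RpS15 (266). The summit lay upstream of the start in 7 of 9 members, at a median of -130 bp, against 8 of 21 cytosolic genes, where the median was 34 bp downstream. The difference between the lists was not tested.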

How the data were processed

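ChIP-seq peak lists of 2 replicates (2 and 4) of 1 group were used. Per the deposited documentation, each replicate list came from that library's alignment and 1 further file that it does not describe, the pooled list from the alignments of both libraries with the same file, and the IDR-thresholded list from these 3 lists. How reads were aligned, how peaks were called, the IDR threshold and the depth were not stated there. The deposited signal value per peak has no stated scale and was used within a list only. The authors' −log10 q-value, at its maximum for 53.6% of IDR-thresholded peaks, was not used to rank. The dm6 lists were used and the dm3 lists were not.

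Summits (1-based) within 500 bp of any transcript start of the Ensembl annotation on chromosomes 2L, 2R, 3L, 3R, 4 and X were promoter peaks. All peak ends lay within the Release 6 chromosome lengths. Named by rule were members with an IDR-thresholded promoter peak, up to 5 with a promoter peak in both replicates only, those with none, and the 3 strongest of each comparison list. Members seen in 1 replicate, those with a peak beyond the window, and mIF2 were named after their values were seen. Of 40 listed mitochondrial symbols 8 did not match the annotation. Members and lists were chosen with earlier results of these data known. Assignment was tested on placed peaks. Python 3.11.15, pandas 2.3.3 and statsmodels 0.14.6 (Wilson intervals) were used. Alternatives were other windows, starts, thresholds, overlap and single replicates.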

Additional observations from a re-analysis of the deposited data

How the results depend on the processing

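The count of 9 members with an IDR-thresholded promoter peak fell to 5 when the peak had to overlap a start by at least 1 bp, which left out mRpL2, mRpL20, mRpS23 and mRpS25; the members' share was then 6.76%, against 7.09% of all protein-coding genes. Within 250 bp it was 6 (8.11%, against 9.21% of all protein-coding genes) and within 1000 bp 12, adding mRpL33, mRpL49 and mRpS31 (16.2%, against 16.9%). In 2 settings the members' share passed above that of all protein-coding genes: with the most upstream start it was 9 (12.2%, against 10.6%), and in the stronger 50% of peaks 8 (10.8%, against 8.06%). With the most upstream start PNPase was counted only through its weaker peak, since its strongest summit lay 792 bp from that start. From single replicates, taking the strongest 7326 peaks, the count ranged from 8 without replicate 2 (10.8%, against 12.9%) to 10 without replicate 4 (13.5%, against 15.5%). In both cases 8 of the 9 genes were kept and mRpS25 was lost, and without replicate 4 mRpS2 and mRpS24 were added. Counts in the pooled list ranged from 8 to 14, in replicate 2 from 10 to 19 and in replicate 4 from 9 to 15 over the windows. In motif windows reaching 50 bp to each side GAGAG was in 0 of 11 member windows (against 19.0% of other windows) and TATAAA in 1 (17.8%). In those reaching 150 bp CAGTG was in 3 (against 54.5%), TATAAA in 4 (37.8%) and CACGTG in 1 (2.74%). No paired analysis was possible because there is a single group. Depth is unknown, no control library was analysed here, and 2 replicates allow no test between groups.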

Other observations

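The replicate 2 peaks at mRpS2 and mRpS24 were among the strongest 7326 of that list, yet the other lists had nothing near them. The nearest summits of the pooled list lay 11156 bp from the mRpS2 summit and 10797 bp from the mRpS24 summit, and those of replicate 4 lay 11152 and 10871 bp away. Such peaks were uncommon: of the strongest 7326 peaks of replicate 2, 301 (4.11%) had no summit of the pooled list or of replicate 4 within 500 bp, and of those of replicate 4, 120 (1.64%) had none of the pooled list or of replicate 2.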
